A study of Mus musculus with 26 samples.

Results

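The cytosolic ribosomal proteins of mouse pro-B cells, and the pseudogene rows that carry their names, were followed in 2 experiments that lowered Brg1, the ATPase of the SWI/SNF (BAF) chromatin remodelling complexes. Members were the rows whose gene name starts with Rpl or Rps and a digit, or is Rpsa, Rplp0, Rplp1 or Rplp2, with the S6 kinase genes (Rps6k) left out. Names with "-ps", or with pseudogene as the annotated source, formed the pseudogene class, and the rest formed the coding class. Of 21277 genes in the deposited tables, 229 were members, 86 of them coding and 143 pseudogenes. The deletion table held 206 members among 19404 genes (86 coding, 120 pseudogene), and the knockdown table held 209 among 19719 (86 coding, 123 pseudogene). All 86 coding members and 100 pseudogenes were in both.

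All cells were B220+ bone marrow cells of C57/Bl6 mice, cultured for 7 days with IL7 and SCF. In the deletion experiment, 2 libraries came from Brg1F/F x ER-Cre cells, in which tamoxifen-activated Cre removes the floxed gene, and 2 from Brg1+/+ x ER-Cre control cells, which carry the same Cre. Tamoxifen was given to both groups at 0.3 µM over the final 60 hours. For the knockdown, Rag1-/- cells, which lack a recombinase for antigen receptor genes, received a retrovirus on days 3 and 4 that carried Brg1 shRNA (3 libraries) or control shRNA (3 libraries), and infected cells were enriched with hCD25 beads 2 days after infection. Nothing in the labels ties the libraries to separate animals, so the p-values measure only the spread between these libraries, which may be technical. The tables give the authors' mean of each group in normalized reads, with no value per library and no standard error. In these bulk samples, fewer cells of a type and less RNA per cell cannot be told apart.

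A ribosome has a large 60S and a small 40S subunit, each made of proteins on a core of ribosomal RNA. The names follow the subunit, Rpl for large and Rps for small. Mouse ribosomal protein genes are known for very abundant mRNAs that begin with a run of pyrimidines, the 5′ terminal oligopyrimidine (TOP) tract, through which mTOR signalling and the RNA-binding protein LARP1 set their translation. Because these mRNAs are so abundant, reverse transcription has copied them into the genome many times. Most of the copies are intronless processed pseudogenes nearly identical to the parent mRNA, so a short read can match both, and the counting program decides where it goes.

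The checks of the samples came first. Smarca4, the gene of Brg1, had 6067 normalized reads in Brg1-deleted cells and 17898 in control pro-B cells, and 6743 with Brg1 shRNA against 13340 with control shRNA, and it was called lower in each of the authors' deposited tables (adjusted p = 0.0008 and 0.0472). All 10 pro-B markers were listed in both tables. Their summed means were 76767 in Brg1-deleted and 51914 in control pro-B cells, and 47164 with Brg1 shRNA and 40868 with control shRNA. Single markers were split, with 6 higher and 4 lower in the deletion (median log2 ratio 0.17), and 5 higher and 5 lower in the knockdown. Cd79b was called higher in the deletion (adjusted p = 0.0106 in the authors' deposited table), where 1.47% of all genes were called in either direction. The 6 neutrophil markers summed to 798 in Brg1-deleted cells and 3084 in control pro-B cells, with Elane and Prtn3 called lower, and the 5 listed macrophage markers of 6 summed to 2994 and 4467. In the knockdown the same sums were 153 and 181 for neutrophils and 292 and 244 for macrophages. T cell, erythroid and stroma markers each summed to at most 31.4 in every group. The part of these other cells in the results below was not tested.

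The letters around the annotated transcript starts were searched for runs of pyrimidines, which were more frequent in coding members than in all genes. In RefSeq's GRCm38.p6 table of promoters, 63 of the 86 coding members had an entry and no pseudogene member had one. The window searched ran from 30 bases before to 50 bases after the annotated start on the strand of the gene, for the longest unbroken run of C or T. For each gene the promoter entry with the longest run was kept. Of the 63 coding members, 49 (77.8%) held a run of at least 8 such bases, against 32.3% of all 27018 genes with a promoter entry. The median longest run was 10 bases in the coding members and 6 bases in all genes. The following 30-base stretches are shown for 5 members whose values are described below and for Rpl13a, one of the 5 coding members with most reads, with the run in capitals.
Rps2 at chr17:24720083-24720112, plus strand: aaattgtcccttccgcggcgCCTCCCTCTT
Rpl22l1 at chr3:28805499-28805528, plus strand: cgcaagcccgTTCTCTTCCCacggctgcag
Rpl10 at chrX:74270836-74270865, plus strand: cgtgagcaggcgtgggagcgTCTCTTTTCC
Rpl10a at chr17:28328572-28328601, plus strand: aagcgctctgCCTTCTTTCCggtttccgcg
Rpl18 at chr7:45718062-45718091, plus strand: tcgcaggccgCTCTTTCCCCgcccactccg
Rpl13a at chr7:45128722-45128751, minus strand: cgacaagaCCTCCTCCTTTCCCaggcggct
The table ends 50 bases after the start, which cuts off the runs of Rps2 and Rpl10. Relative to the annotated start, the runs begin at base 41 in Rps2 and Rpl10 and at base 18 in Rpl10a. They begin at base 3 in Rpl13a and at base 2 in Rpl22l1 and Rpl18. Such a match describes the letters only and is not a mapped TOP tract.

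After deletion of Brg1 the coding members leaned lower by a small amount, and no single one passed the authors' test. Of the 86, 69 had a lower mean in Brg1-deleted than in control pro-B cells and 17 a higher one, with a median log2 ratio of -0.24, beside a median of 0.00 and 50.1% lower over all listed genes. At an adjusted p under 0.05, 0 coding members were called, where 1.47% of all genes were called in either direction. At an unadjusted p under 0.05 there were 3, where 9.52% of all genes passed. Their summed means were 341088 normalized reads in Brg1-deleted cells and 385506 in control pro-B cells, or 3.37% and 3.72% of all normalized reads. Of the 2452 other genes with at least 1000 normalized reads, 52.3% were lower, with a median of -0.03. In the 37 coding members whose reads could be recovered for single libraries, a limma fit gave a median of -0.29. A fit that left out the shallower Brg1-deleted library gave a median of -0.13, leaving out the deeper one gave -0.42, leaving out the deeper control library gave -0.44, and leaving out the shallower one gave -0.24.

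Both ribosomal subunits shared this. Large-subunit members were lower in 41 of 51, with a median log2 ratio of -0.25 and sums of 192724 in Brg1-deleted and 220065 in control pro-B cells. Small-subunit members were lower in 28 of 35, with a median of -0.21 and sums of 148364 and 165441. Of the 77 core ribosomal protein genes that fit the name rule, 76 were listed as coding rows, 60 of them lower. Rps12, of the small subunit, was not analysed as a coding row. The other 10 coding rows were paralogs and a binding protein, Rps19bp1, and 9 of these 10 were lower, with a median of -0.58. Among them, Rps3a2 and Rps3a3 belong to the Rps3a family, whose summed rows had a log2 ratio of -0.07. Rpl39l and Rps4y2 had few reads, with means of 1.50 and 14.4 in control pro-B cells.

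**Figure D1:**
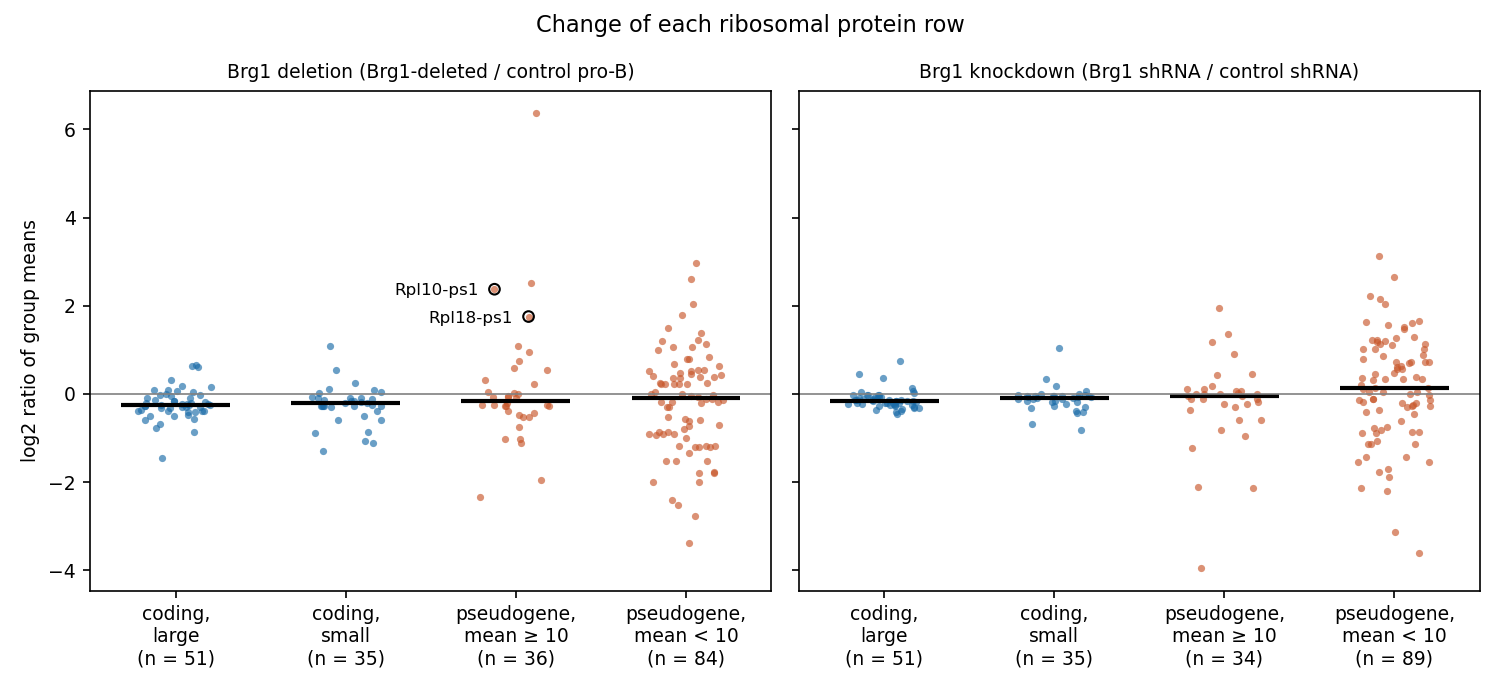
Each point is a member, placed by its log2 ratio (Brg1-depleted over control), with coding rows by subunit and pseudogene rows by a mean of at least or under 10 normalized reads. Black bars are medians and rings mark the called Rpl10-ps1 and Rpl18-ps1. In the deletion 69 of 86 coding points lie below 0, and pseudogene points spread far wider around a median of -0.11.

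Rps2, a protein of the 40S subunit near the mRNA entry channel, came closest to a call among coding members. It had 3711 normalized reads in Brg1-deleted cells and 7782 in control pro-B cells, a log2 ratio of -1.07 (adjusted p = 0.0767 in the authors' deposited table). With Brg1 shRNA it had 5100, against 6790 with control shRNA, a log2 ratio of -0.41 (unadjusted p = 0.0983 in the authors' deposited table). Rpl22l1, the paralog of the large-subunit protein Rpl22, had 323 in Brg1-deleted cells and 588 in control pro-B cells (log2 ratio -0.86, unadjusted p = 0.0178 in the authors' deposited table). Its deeper and shallower libraries held 338 and 308 normalized reads in Brg1-deleted cells, against 573 and 602 in control pro-B cells. Both Brg1-deleted libraries lay below both controls. With Brg1 shRNA, Rpl22l1 had 533, against 708 with control shRNA. Rpl10a, a large-subunit protein of the L1 stalk, had 891 and 877 in the deeper and shallower Brg1-deleted libraries and 1426 and 1586 in the control libraries (log2 ratio -0.77, unadjusted p = 0.0241 in the authors' deposited table). Here too the libraries of the groups did not overlap. Of all recovered genes with a mean of at least 10, 54.6% showed no overlap, 27% with both Brg1-deleted libraries below. Rpl10a was at 1091 with Brg1 shRNA and 1416 with control shRNA.

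At the low end of the coding class, Rpl3 and the Rps3a rows had near-copies with other ratios. Rpl3, a large-subunit protein close to the peptidyl transferase centre, had 2054 normalized reads in Brg1-deleted cells and 5637 in control pro-B cells, the lowest log2 ratio of its class at -1.46 (unadjusted p = 0.214 in the authors' deposited table). Its pseudogene Rpl3-ps1 had 8820 in Brg1-deleted and 8601 in control pro-B cells. Summed over the family, Rpl3 had 10886 and 14245. The rows of Rps3a, a small-subunit protein, also had unlike ratios under different names. Rps3a3 had 1491 in Brg1-deleted cells and 3664 in control pro-B cells, and Rps3a2 had 2561 and 4769. Rps3a1 had 11646 in Brg1-deleted and 8049 in control pro-B cells. The family sum was 15698 in Brg1-deleted cells and 16482 in control pro-B cells, a log2 ratio of -0.07. Rps4y2, a gene of the Rps4 family, was near the level minimum, with 6.66 and 14.4.

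At the high end of the coding class the levels were mostly low or uneven between libraries. Rps13, of the small subunit, had 33.2 normalized reads in Brg1-deleted cells and 15.7 in control pro-B cells, a log2 ratio of 1.07. Rpl34, of the large subunit, had 2735 and 512 in the deeper and shallower Brg1-deleted libraries and 1479 and 588 in the control libraries. The libraries of each group lay further apart than the groups did. Rpl11, a large-subunit protein that also binds Mdm2, had 1122 and 752 in Brg1-deleted cells and 879 and 348 in control pro-B cells. Rpl3l, the muscle paralog of Rpl3, had a mean of 32.6 in Brg1-deleted and 21.0 in control pro-B cells. None of these 4 passed the authors' test.

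**Figure D2:**
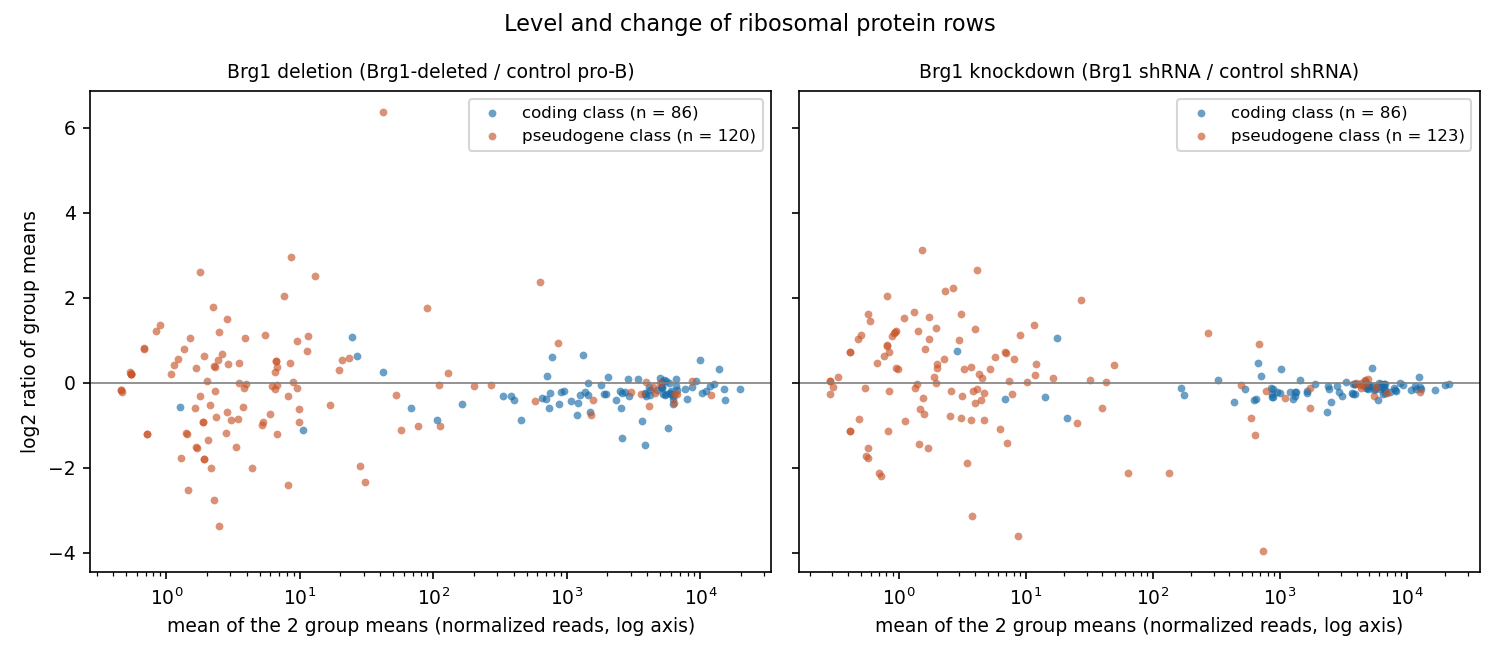
The mean of both groups in normalized reads (log axis) is set against the log2 ratio (Brg1-depleted over control), for coding and pseudogene members of each experiment. Coding members sit mostly above 1000 normalized reads and close to 0, while pseudogene members with few reads scatter widely.

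The only members called in either experiment were 2 pseudogene rows, in the deletion. After deletion, 68 of 120 pseudogene rows were lower and 52 higher, with a median log2 ratio of -0.11, and their summed means were 70260 in Brg1-deleted cells and 80552 in control pro-B cells (0.695% and 0.778% of all normalized reads). In the limma fit on 93 recovered pseudogenes the median was -0.16, and it turned to 0.40 without the shallower Brg1-deleted library. It was -0.38 without the deeper one, -0.43 without the deeper control library and -0.16 without the shallower control library. The 2 called of 120 were both higher, where 1.47% of all genes were called in either direction (0.732% higher and 0.742% lower). Calls were thus about as frequent in this class as over all genes. The 1486 other genes annotated as pseudogenes had a median of -0.10, with 782 lower.

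Rpl10-ps1, a processed copy of the large-subunit gene Rpl10, lies at chr2:105554201-105554845 of mm10. It had 1137 and 981 normalized reads in the deeper and shallower Brg1-deleted libraries, against 252 and 157 in the control libraries. Both Brg1-deleted libraries lay above both controls, as in 27.6% of all recovered genes with a mean of at least 10. The log2 ratio of the means was 2.37 (adjusted p = 2.41e-07 in the authors' deposited table). Its coding counterpart Rpl10 had a lower mean, with 2415 and 1595 in Brg1-deleted cells and 2572 and 3509 in control pro-B cells, a log2 ratio of the means of -0.60 that was not called. Summed over all rows of its family, Rpl10 was also lower, at 8416 in Brg1-deleted and 10703 in control pro-B cells (log2 ratio -0.35). In the knockdown Rpl10-ps1 had 382 with Brg1 shRNA and 894 with control shRNA (log2 ratio -1.23, unadjusted p = 0.256 in the authors' deposited table). The row is marked as confounded by the authors, a mark the sources used here do not define. No other listed gene overlaps it, and RefSeq places the long non-coding RNA Pax6os1 across it.

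Rpl18-ps1, a copy of the large-subunit gene Rpl18, lies at chr1:60900898-60901422 of mm10. It had 149 and 129 normalized reads in the deeper and shallower Brg1-deleted libraries, against 28.3 and 54.0 in the control libraries. Again the groups did not overlap, as in 54.6% of all recovered genes with a mean of at least 10. The log2 ratio of the means was 1.75 (adjusted p = 0.0282 in the authors' deposited table). The row overlaps that of Ctla4 on the same strand, an inhibitory T cell receptor gene with 1.30 in Brg1-deleted and 0.488 in control pro-B cells. Rpl18 itself was at 4986 in Brg1-deleted and 5318 in control pro-B cells. With Brg1 shRNA Rpl18-ps1 had 16.8, against 6.52 with control shRNA (log2 ratio 1.37, unadjusted p = 0.0842 in the authors' deposited table). A limma fit on the recovered reads of the 4 libraries called neither copy, with fitted log2 ratios of 2.41 for Rpl10-ps1 (adjusted p = 0.128) and 1.81 for Rpl18-ps1 (adjusted p = 0.144), and it called 0 of 16801 genes in all, 16.8% of them at an unadjusted p under 0.05. Leaving out each library in turn, which leaves 1 group with a single library assumed to vary like the other group, gave adjusted limma p-values of 0.0405 to 0.378 for Rpl10-ps1 and 0.0716 to 0.431 for Rpl18-ps1.

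The other pseudogenes at the ends of the range rested on few reads or on 1 library. Among rows with a mean of at least 10, Rpl35a-ps2 had the highest ratio, with 0 and 165 normalized reads in the deeper and shallower Brg1-deleted libraries and 0 and 2.00 in the control libraries. Rpl9-ps6 had the lowest, with 19.0 and 1.16 in Brg1-deleted cells and 0.975 and 101 in control pro-B cells. A single library carried most reads of each. Rpl10-ps6, whose row overlaps the insulin-degrading enzyme gene Ide, had 16.4 and 27.9 in Brg1-deleted cells and 7.80 and 0 in control pro-B cells. The libraries of the groups did not overlap, and it was not called. Rps25-ps1 had means of 36.0 in Brg1-deleted and 77.6 in control pro-B cells, and Rpl23a-ps3 had 50.6 and 102.8.

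Pseudogene rows with many reads leaned lower, like the coding class. In the 14 rows with at least 1000 normalized reads, which held 93.9% of the reads of the class in Brg1-deleted cells and 96.2% in control pro-B cells, 12 were lower, with a median log2 ratio of -0.26. In the 22 rows from 10 to 1000 normalized reads, 11 were lower, and in the 84 rows under 10, 45 were lower. Rps6-ps4, the pseudogene row with most reads, had 10776 in Brg1-deleted and 13077 in control pro-B cells, and 11641 with Brg1 shRNA and 13549 with control shRNA. Per kilobase of exon it held 13125 and 15928 in Brg1-deleted and control pro-B cells, which is close to Rpl4, the coding row with most reads, at 13267 and 14716. Rps6, the coding gene that Rps6-ps4 copies and the substrate of the S6 kinases, held 217 and 267 per kilobase.

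The other members with most reads given here had log2 ratios from -0.48 (Rpl10-ps3) to 0.32 (Rpl13a) in the deletion. In the knockdown their log2 ratios ran from -0.23 (Rpl10a-ps1) to 0.13 (Rpl13a), with Rpl3-ps1 left out. Rplp0, a protein of the large-subunit stalk, had 13213 normalized reads in Brg1-deleted and 17393 in control pro-B cells, and 21051 with Brg1 shRNA and 21488 with control shRNA. Rps4x, the X-linked small-subunit gene, had 14300 in Brg1-deleted and 15769 in control pro-B cells, and 15792 with Brg1 shRNA and 17632 with control shRNA. Rpl7, of the large subunit, had 12567 and 12869 in Brg1-deleted and control pro-B cells, and 12156 and 13506 with Brg1 and control shRNA. All of these means were lower in the Brg1-depleted group. Rpl13a, a large-subunit protein, was the exception among the 5 coding rows with most reads, at 15332 in Brg1-deleted and 12303 in control pro-B cells, and 12920 with Brg1 shRNA and 11814 with control shRNA. Among pseudogene rows, Rpl10a-ps1 had 6087 in Brg1-deleted and 7285 in control pro-B cells, and 6437 with Brg1 shRNA and 7565 with control shRNA. Rpl10-ps3 had 5325 in Brg1-deleted and 7452 in control pro-B cells, and 5524 with Brg1 shRNA and 5947 with control shRNA. Rpl3-ps1, also one of the 5 pseudogene rows with most reads, lay outside the range of the knockdown. It had 1371 with Brg1 shRNA and 2070 with control shRNA, a log2 ratio of -0.59. None of these rows was called.

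Knockdown gave a smaller lean of the same sign. Of the 86 coding members, 74 had a lower mean with Brg1 shRNA than with control shRNA and 12 a higher one, with a median log2 ratio of -0.14, beside 0.00 and 50.3% lower over all listed genes. At an adjusted p under 0.05, 0 were called, where 0.218% of all genes were called (0.177% higher and 0.0406% lower), and 0 passed even an unadjusted p of 0.05 in the authors' deposited table, where 2.74% of all genes passed. Their sums were 380722 with Brg1 shRNA and 410290 with control shRNA, or 4.42% and 4.62% of all normalized reads. Abundant genes as a whole also leaned lower here, with 57.1% of the 1966 other genes with at least 1000 normalized reads lower and a median of -0.05. Large-subunit members were lower in 44 of 51 (median -0.15) and small-subunit members in 30 of 35 (median -0.08).

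No single coding member of the knockdown was near a call. The lowest ratios were those of Rps13 (15.2 with Brg1 shRNA, 27.0 with control shRNA), Rps16 (1776 and 2869), Rpl5 (366 and 502) and Rps21 (2154 and 2924). Rpl5, which forms a particle with 5S RNA and Rpl11, had a log2 ratio of -0.46. At the other end, Rps27 had 23.9 with Brg1 shRNA and 11.6 with control shRNA, the highest log2 ratio at 1.05. Rpl35 had 780 and 567, Rpl23a had 5965 and 4661, and Rps7 had 1127 and 895. All 8 were uncalled.

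Pseudogene rows in the knockdown were split evenly, with 59 of 123 lower and 64 higher, a median log2 ratio of 0.02 and 0 called or past an unadjusted p of 0.05 in the authors' deposited table. Their sums were 67648 with Brg1 shRNA and 75171 with control shRNA, or 0.786% and 0.847% of all normalized reads. The 14 rows with at least 1000 normalized reads were lower in 11, with a median of -0.11. Large single ratios occurred without calls. Rpl23a-ps3 had 88.9 with Brg1 shRNA and 1372 with control shRNA, a log2 ratio of -3.95 (unadjusted p = 0.255 in the authors' deposited table). Rpl30-ps9 had 23.8 and 104.5. Rpl9-ps6 had 43.0 and 11.1, Rpl38-ps2 had 372 and 166, and Rps27a-ps2 had 892 and 477. Rpl9-ps6, at 10.1 and 51.0 in the deletion, thus had opposite signs in the experiments.

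The experiments share no samples. Of the 86 coding members, 61 (70.9%) had a lower mean in both and 4 a higher mean in both. Taken alone, 69 were lower in the deletion and 74 in the knockdown, so a large overlap follows from both leans. Whether single members agreed beyond that was not tested. Among the 17846 genes listed for both experiments, 35.6% were lower in both, and of those with at least 1000 normalized reads 48.4%. Of the 100 pseudogenes in both, 32 were lower in both and 21 higher in both.

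The division of a family's reads between its names differed widely among families. Families are a coding gene and the pseudogenes named after it, and 45 of them had rows of both classes. In control pro-B cells the pseudogene rows held over 50% of the family's normalized reads in 11 families, namely Rpl3, Rpl10, Rpl10a, Rpl15, Rpl28, Rpl31, Rpl34, Rps6, Rps13, Rps16 and Rps23. In Rag1-null control cells they did so in 10, the same without Rpl3, and in 24 families of each control group they held under 1%. The Rps6 family was at 96.9% in both Brg1-deleted and control pro-B cells. The Rpl3 family was at 81.1% in Brg1-deleted and 60.4% in control pro-B cells, but at 11.0% with Brg1 shRNA and 14.4% with control shRNA.

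Family sums varied less than their rows. For Rps16, of the small subunit, pseudogene rows held 99.1% of family reads in Brg1-deleted and 98.8% in control pro-B cells, and 73.0% with Brg1 shRNA and 61.4% with control shRNA. The Rps16 sum was 5839 in Brg1-deleted and 7079 in control pro-B cells, and 6567 with Brg1 shRNA and 7423 with control shRNA. For Rpl23a, the share was 1.54% with Brg1 shRNA and 22.8% with control shRNA, yet the sum was 6058 and 6034. Thus the ratio of -3.95 of Rpl23a-ps3 and the higher Rpl23a row left the sum of the family level. For Rpl38 the sums in the knockdown were 1589 with Brg1 shRNA and 1582 with control shRNA.

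**Figure D3:**
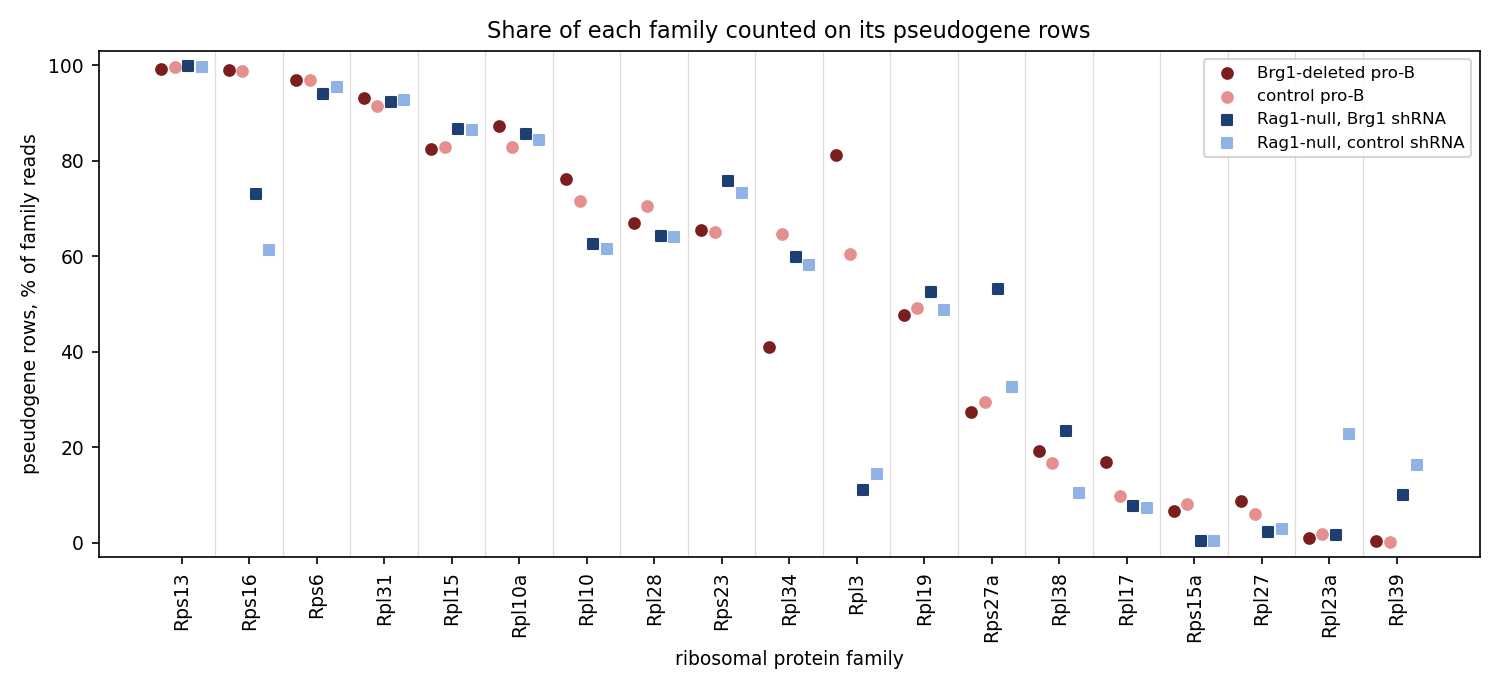
For 19 families in which pseudogene rows held at least 5% in some group, the plot gives the percentage (vertical axis) of the family's normalized reads that pseudogene rows held in each of the 4 groups. The Rpl3 family stands at 81.1% and 60.4% in Brg1-deleted and control pro-B cells and at 11.0% and 14.4% with Brg1 and control shRNA.

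Summed by family, a lean of the same sign was seen, but only 45 families of each experiment had rows of both classes. Most other sums are single coding rows already counted above, so their sign was fixed. Of 84 family sums with at least 10 normalized reads in the deletion, 71 were lower in Brg1-deleted cells, with a median log2 ratio of -0.24. In the knockdown 71 of 83 were lower with Brg1 shRNA, with a median of -0.12. The sums differed by over 1.5-fold in 8 families of the deletion, lower for Rps2, Rpl22l1, Rpl27, Rps27l, Rps29 and Rps4y2 and higher for Rpl3l and Rpl11, and in 1 of the knockdown, Rps27. Among these named families, only Rps2 and Rpl27 included pseudogene rows. The grouping by family was chosen after the data were seen. Single pseudogenes with a listed counterpart shared its sign in 61 of 112 cases in the deletion and in 54 of 113 in the knockdown. The median size of the log2 ratio was 0.65 for these pseudogenes and 0.27 for the counterparts in the deletion, and 0.73 and 0.12 in the knockdown.

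Single libraries could be recovered in the deletion only, as whole reads that sum to the authors' mean, and only where 1 solution existed. This was so for 37 of 86 coding members, holding 10.7% of the control reads of the class, and for 107 of 120 pseudogenes, holding 6.16%. The largest members are therefore absent from these values. The 37 coding members summed to 39473 and 31169 in the deeper and shallower Brg1-deleted libraries and to 38948 and 43381 in the control libraries. The deeper Brg1-deleted library lay within the range of the controls. Among the 36 with at least 10 normalized reads, both Brg1-deleted libraries lay below both controls in 16 and above in 1, where 27% of all such genes lay below and 27.6% above (54.6% in all). The limma fit on these reads called 0 of the 37, with 7 at an unadjusted p under 0.05, where 16.8% of all genes in the fit passed. Rpl27, of the large subunit, was one of the 16, with 1351 and 924 in Brg1-deleted cells and 1777 and 1870 in control pro-B cells. Rps29, of the small subunit, was another, with 86.4 and 65.1 against 131 and 146 in control pro-B cells. Of 23 pseudogenes with at least 10 normalized reads, 5 lay below, 7 above and 11 overlapped.

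The markers of pro-B cells, neutrophils and macrophages also differed between these libraries. The 2 of 10 pro-B markers that could be recovered, Il7r and Dntt, summed to 732 and 3034 in the deeper and shallower Brg1-deleted libraries and 3361 and 2026 in the control libraries. The recovered neutrophil sums were 44.1 and 526 in the deeper and shallower Brg1-deleted libraries and 1135 and 680 in the control libraries. The macrophage sums were 4257 and 1730 in Brg1-deleted cells and 2365 and 6569 in control pro-B cells. Within each group, the library with the higher macrophage sum had the higher sum of the 37 coding members and the lower pro-B and neutrophil sums. Their part in the ribosomal protein values was not tested.

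Libraries of the same group could divide a family quite differently. For 13 of the 23 pseudogenes the Brg1-deleted libraries were over 2-fold apart or had 0 reads in 1, and for 10 the control libraries were, against 4 and 5 of 36 coding members. In the Rpl34 family the pseudogene rows held 5.83% and 80.2% of the reads in the deeper and shallower Brg1-deleted libraries and 45.7% and 81.1% in the control libraries. The Rpl34 sums were 2905 and 2590 in Brg1-deleted cells and 2723 and 3116 in control pro-B cells. In this family the shares were far apart within each group while the sums stayed close. In the Rps27a family, a ubiquitin fusion gene of the small subunit, the shares were 14.9% and 52.2% in Brg1-deleted cells and 23.6% and 33.4% in control pro-B cells. There the sums differed within a group as well, at 2371 and 1194 in Brg1-deleted cells and 1785 and 2692 in control pro-B cells. The Rpl27 sums were 1560 and 935 in Brg1-deleted cells and 1931 and 1947 in control pro-B cells, and the Rpl21 sums were 2117 and 1438 in Brg1-deleted cells and 1325 and 2377 in control pro-B cells. Rps27 had 91.6 and 0 in Brg1-deleted cells and 0 and 77.1 in control pro-B cells.

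**Figure D4:**
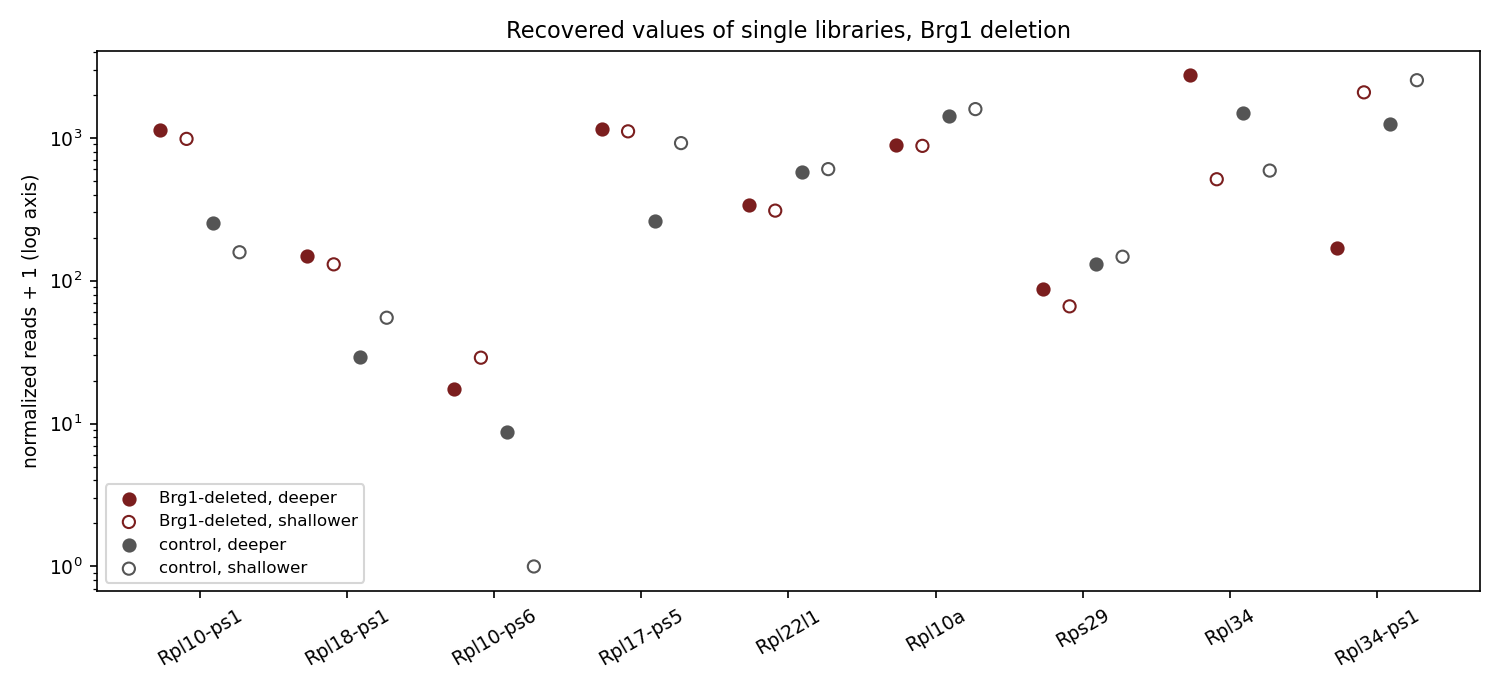
Recovered normalized reads plus 1 of 9 members are shown per library (log axis), with the deeper (filled) and shallower (open) Brg1-deleted libraries left of the control libraries. Rpl10-ps1 and Rpl18-ps1 are higher in both Brg1-deleted libraries than in both controls, as are 27.6% of all recovered genes with a mean of at least 10. The libraries of Rpl34 differ more within a group than between groups.

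The control groups of the experiments give the baseline. Their tables were normalized separately, so levels set across them are descriptions. Over all 17846 genes listed for both, the log2 ratio of Rag1-null control over pro-B control had a median of -0.30, with 3857 higher. For the 86 coding rows the median was 0.06, with 52 higher. The coding class thus stood higher in Rag1-null control cells when set beside all genes. Over 43 families with rows of both classes, the log2 ratio of Rag1-null control over pro-B control had a median size of 0.07 for the family sum, with none over 2-fold. For the coding rows the median size was 0.13, with 2 over 2-fold, Rps16 (log2 ratio 5.12) and Rpl3. For the 33 pseudogene rows with at least 10 normalized reads it was 0.67, with 13 over 2-fold and a range from -8.90 to 6.76. Rps16 had 2869 in Rag1-null control cells and 82.2 in control pro-B cells, while Rps16-ps2 had 4554 and 6997.

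**Figure D5:**
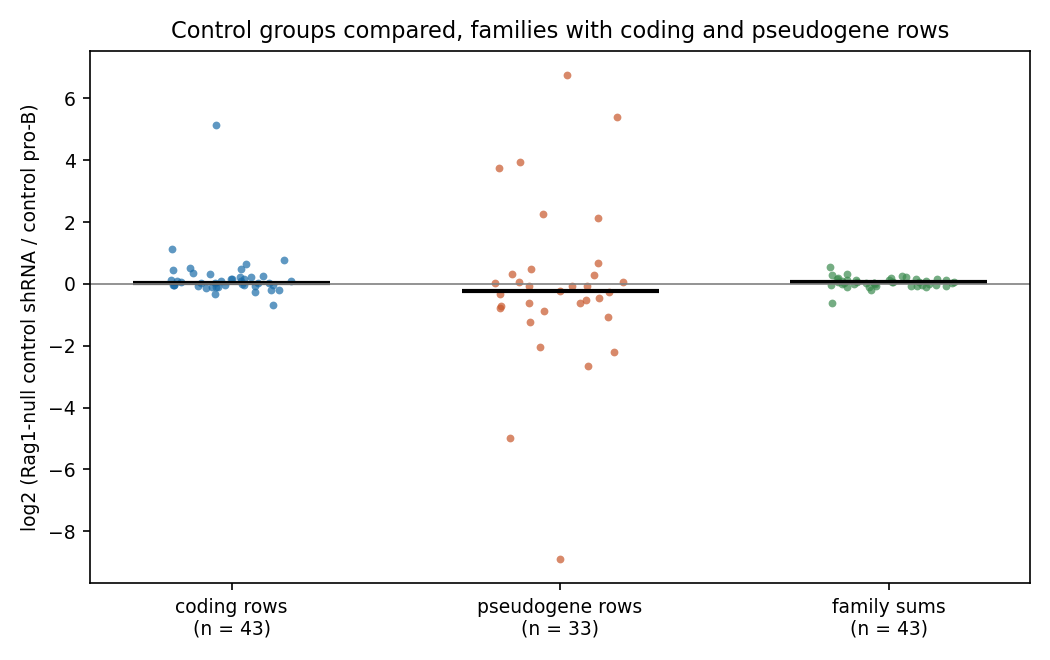
Each point is the log2 ratio of Rag1-null control over control pro-B cells, for coding rows, pseudogene rows and family sums, with bars at the medians. Family sums lie close to 0, and pseudogene rows range from -8.90 to 6.76. The median over all 17846 genes listed for both, not drawn, was -0.30.

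The classes differed in level as well. The median level was 3.90 normalized reads in the deletion and 3.07 in the knockdown for pseudogenes, and 3541 and 3898 for coding rows. Median exon length was 483 bases for pseudogenes and 1428 bases for coding rows in the deletion table. In the deletion, 65 coding rows had at least 1000 normalized reads, and 59 of the 107 recovered pseudogenes had no read in at least 1 library. Of the 143 pseudogene names 140 matched RefSeq, which types 134 of them as pseudogenes. In the pseudogene class, 19 rows of the deletion table carried a protein-coding source and were placed there by their name. The 20 pseudogenes listed for the deletion alone had a median level of 1.68 normalized reads, and the 23 listed for the knockdown alone had 0.762.

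The paralogs of ribosomal proteins were compared with their counterparts per kilobase of exon. Rpl22l1 held 0.806 of the level of Rpl22 in Brg1-deleted cells and 1.24 in control pro-B cells, and 1.16 with Brg1 shRNA and 1.47 with control shRNA. Rpl36al held 0.694 of the level of Rpl36a in Brg1-deleted and 0.804 in control pro-B cells. Rpl7l1 held 0.0752 and 0.0982 of that of Rpl7. These 3 ratios were lower in Brg1-deleted cells, with no test of the difference. Rpl3l stayed far below Rpl3, at 0.0131 and 0.00309.

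The lists of genes that work with the ribosomal proteins are set beside all listed genes, of which 1.47% were called and 50.1% were lower in the deletion, and 0.218% were called and 50.3% were lower in the knockdown. Of 14 other mRNAs known for a TOP tract, mostly translation factors, 10 were lower in Brg1-deleted cells, with a median log2 ratio of -0.40, and 1 was called, Npm1, a nucleolar chaperone, at 4607 in Brg1-deleted and 10263 in control pro-B cells (adjusted p = 0.0365 in the authors' deposited table). In the knockdown 10 of 14 were lower, with a median of -0.14 and 0 called. Of 12 regulators of ribosomal protein synthesis, 9 were lower in Brg1-deleted cells and 1 was called, Mxd4, an antagonist of Myc, which was higher at 3332 against 999 in control pro-B cells (adjusted p = 0.0003 in the authors' deposited table). Myc, a transcription factor that drives ribosomal protein genes, had 517 in Brg1-deleted and 1938 in control pro-B cells (adjusted p = 0.146 in the authors' deposited table). Larp1 had 2514 in Brg1-deleted and 5031 in control pro-B cells, and Eif4ebp1, a translation repressor under mTOR, had 302 and 622. These 3 were not called. In the knockdown 8 of the 12 were lower and 0 were called. Of the 10 S6 kinase genes 5 were lower in the deletion and 3 in the knockdown, with 0 called. Fau and Gnb2l1, ribosomal protein genes named outside the pattern, were also uncalled, with Fau at 1785 in Brg1-deleted and 1131 in control pro-B cells and Gnb2l1 at 12098 and 13853.

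The pyrimidine runs were set beside the ratios last. The 49 coding members with a run of at least 8 pyrimidines, such as Rpl10a (CCTTCTTTCC) and Rpl18 (CTCTTTCCCC), had a median log2 ratio of -0.27 after deletion, with 37 lower. The 14 with a shorter run had a median of -0.24, with 12 lower. In the knockdown the medians were -0.14 (40 lower) and -0.13 (13 lower).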

How the data were processed

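Polyadenylated RNA was sequenced as strand-marked (dUTP) libraries, per the labels' protocols, in 10 samples in 4 groups taken from the sample titles. The other 16 of the 26 samples were not analysed here. The submitters' processing notes name CASAVA, RSEM, DESeq and the mm10 build, with no versions. Each mean column is a signal, the mean of normalized reads per group, made by the authors per the file headers. The log2 fold change, the linear fold, the p-value, the adjusted p-value and the exon length are those deposited by the authors, with the fold change running Brg1-depleted over control. Log2 ratios of single rows, and the medians and counts drawn from them, are the deposited log2 fold changes. Those of sums, of shares and between control groups were computed from the deposited means. The calls are the authors' at an adjusted p under 0.05.

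The members and gene lists were chosen with earlier results of these data known. Members named were the called ones, the 4 lowest and 4 highest log2 ratios per class and experiment with a mean of at least 10, the 5 with most reads per class, the paralogs and counterparts, and at most 4 per list by p-value. Other members were named after their values were seen. Some items that this rule names are not reported here. Each deletion mean was resolved into whole reads of 2 libraries (tolerance 6e-05 normalized reads), which gave 1 solution for 97.1% of rows in Brg1-deleted and 95.3% in control pro-B cells, with 7060545, 5462350, 5828977 and 5486902 reads in such rows (deeper then shallower, Brg1-deleted then control). The depth of the knockdown libraries is unknown. Recovered reads were tested by limma 3.58.1 (R 4.3.3) with trend, on log2 values with a pseudocount of 0.5 and a mean of at least 1. Recovery and fit were tested on simulated data. Other steps used Python 3.11.15, pandas 2.3.3 and scipy 1.17.1. Reads of near-identical copies can be split between rows by the counting, so values of single rows in a family are uncertain. Sequences are from RefSeq.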

Additional observations from a re-analysis of the deposited data

How the results depend on the processing

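Of the class counts, medians and shares recomputed under other settings, 80 values stayed near the main one and 22 moved. For coding members of the deletion, against 0 calls, 1 was called at an adjusted p under 0.1, where the share of all genes was not counted. At an unadjusted p under 0.05 there were 3 (9.52% of all genes passed). Their median log2 ratio of -0.24 became -0.29 by limma on recovered reads and ranged from -0.441 to -0.125 with each library left out. For pseudogenes of the deletion, the count of 2 calls became 6 at an unadjusted p under 0.05 (9.52% of all genes passed) and 0 without rows marked confounded. It was 0 by limma on all 4 libraries, which called 0 of 16801 genes. The median log2 ratio ranged from -0.428 to 0.399 with each library left out. The log2 ratio of the share of reads was -0.14 for coding members of the deletion, -0.16 without the 5 largest and -0.0998 per kilobase, and for pseudogenes -0.16, -0.115 and -0.116. In the knockdown it was -0.06 and per kilobase -0.0141 for coding members, and -0.11, -0.0868 and -0.0325 for pseudogenes. No paired analysis was possible because the columns are group means and carry no replicate numbers. Shares per library were not computed, as 49 of 86 coding members had no single solution.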
